A study of Mus musculus with 16 samples.

Results

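Semaphorins are secreted or membrane-bound guidance cues, and plexins are the receptors that carry their signal to the cytoskeleton. Neuropilins are co-receptors that most secreted class 3 semaphorins need in order to reach a class A plexin. The members described here are all genes whose symbol in the deposited tables is that of a semaphorin of classes 3 to 7, a plexin or a neuropilin. This rule uses no measured value and found 31 of 39017 gene rows, namely 20 semaphorins, 9 plexins and 2 neuropilins, each present once in all 3 tables. In development these proteins repel or attract growing axons. In the mature cortex they also take part in the pruning and placement of spines and synapses, and several work in glia and blood vessels.

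The study sequenced polysome-bound mRNA of projection neurons of the prelimbic cortex (PL), a medial prefrontal area, together with the total RNA of the tissue around them. All groups were from C57BL/6J mice, and their age is not given in the sources used here. Per the labels' protocols, PL received AAV-IV-GFPL10, a virus that tags the ribosomal protein L10 with green fluorescent protein. CAV-Cre, a virus that axon terminals take up and that brings the recombinase the tag depends on, was placed in 1 of 3 targets. These were the ventral tegmental area (VTA), the nucleus accumbens (NAc) and the basolateral amygdala (BLA). The labels give the Input libraries the same injections as the immunoprecipitate (IP), so the 2 differ in the RNA taken and not in treatment. The tag marks neurons that CAV-Cre reached and may miss others with the same target. The 6 groups were PL-NAc IP and Input with 3 libraries each, PL-BLA IP and Input with 3 each, and PL-VTA IP and Input with 2 each. The labels name no separate animals, cultures or pools, so the p-values measure only the spread between these libraries, which may be technical. Values per library were not used here, because the tables analysed hold 1 mean, 1 log2 fold change and 1 standard error (SE) per gene and projection.

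Mean normalized counts, summed over all genes and divided by 1000000, came to 15.4 for PL-NAc, 16.3 for PL-BLA and 16.5 for PL-VTA in the authors' deposited tables. Among genes whose mean reached 50, the median SE was 0.124, 0.129 and 0.219 in the same order in the authors' deposited tables, so that only larger differences could be called in PL-VTA. A gene was called at an adjusted p under 0.05 of the authors' DESeq2 Wald test. The sign is IP over Input, which no header states. It was taken from the glial markers, whose fall is therefore no finding. With that sign, all 10 oligodendrocyte and 8 microglial markers were lower in every projection, and 11, 10 and 11 of 11 astrocyte markers were lower in PL-NAc, PL-BLA and PL-VTA in the authors' deposited tables. Among 6 oligodendrocyte precursor markers, 5 were lower in every projection. The other, Cspg4, was called higher in PL-BLA at 1.02 (SE 0.25) and was 0.46 and 0.72, uncalled, in PL-NAc and PL-VTA. Of 11 inhibitory neuron markers 10, 11 and 9 were lower. Sst was called higher in PL-NAc at 0.26 (SE 0.09) and lower in PL-BLA at -0.53 (SE 0.09) and PL-VTA at -1.69 (SE 0.19). Of 10 excitatory neuron markers 9 were higher in PL-NAc and 9 in PL-BLA, but in PL-VTA 2 were higher and 3 lower. Their median log2 fold change was 0.59, 0.55 and 0.06 in the order NAc, BLA, VTA in the authors' deposited tables. In bulk RNA of this kind, fewer cells of a type and less RNA per cell cannot be told apart. The IP is polysome-bound mRNA and the Input is total RNA, so a different share of an mRNA on polysomes cannot be told apart from these either.

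Of the 31 members, 30 carried an adjusted p in every projection. In PL-NAc, 7 were higher and 10 lower in the IP in the authors' deposited table, against 43.1% of all tested genes called, 21.4% higher and 21.7% lower. In PL-BLA, 6 were higher and 7 lower in the authors' deposited table, against 41.0% of all tested genes called, 20.8% higher and 20.2% lower. In PL-VTA, 1 was higher and 5 lower in the authors' deposited table, against 21.5% of all tested genes called, 11.0% higher and 10.5% lower. The members' median log2 fold change was -0.24, -0.18 and -0.03 in the authors' deposited tables, beside -0.03, -0.02 and 0.02 over all tested genes. Beside all tested genes, the share of members called was near in PL-BLA and PL-VTA. It was above in PL-NAc, where 17 of 30 were called. All tested genes include many with few reads. Of genes with a mean of at least 50, 3738 of 12061 were higher and 2891 lower in PL-NAc. These counts were 3565 and 2787 of 12228 in PL-BLA and 1684 and 1455 of 12314 in PL-VTA. Beside these genes, the members' share was near in PL-NAc and lower in PL-BLA and PL-VTA. In all, 20 members were called in at least 1 projection and 11 in none. Called lower in all 3 were 4 members, and 0 were called higher in all 3. Higher in both PL-NAc and PL-BLA were 4 members, and all of these were positive but uncalled in PL-VTA in the authors' deposited table. The share of all genes with such patterns across projections was not computed, so these counts only describe the members.

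**Figure D1:**
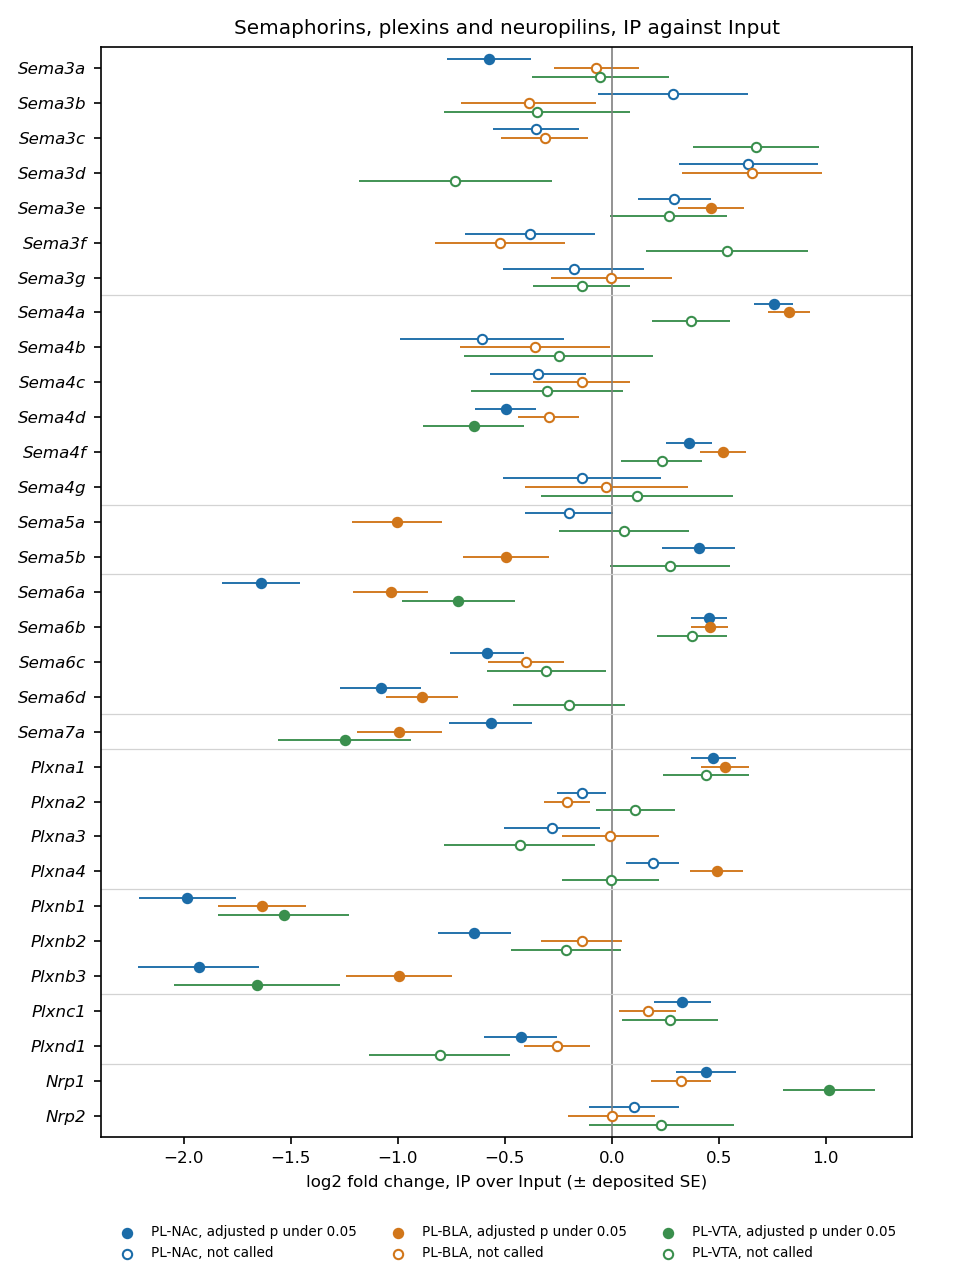
Log2 fold change of IP over Input (x axis) for each of the 31 genes (y axis, grouped by family), with the deposited SE as a bar and 1 colour per projection. Filled points are called at an adjusted p under 0.05. Sema6a, Sema7a, Plxnb1 and Plxnb3 are filled and left of 0 in all 3 colours, whereas Sema4a, Sema4f, Sema6b and Plxna1 are filled and right of 0 in PL-NAc and PL-BLA.

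The members differed widely in level. Per kb of exon, Sema6b, a membrane-bound class 6 semaphorin, was the most abundant at a mean normalized count of 376, 438 and 434 in PL-NAc, PL-BLA and PL-VTA, from means in the authors' deposited tables. Sema4a followed at 191, 190 and 163 per kb, Sema4f at 145, 163 and 142, and the receptor Plxna1 at 85.1, 97.9 and 92.1. These 4 most abundant members are also the 4 called higher in both PL-NAc and PL-BLA. The mean includes the IP libraries and abundant genes have the smaller SE, so the 2 facts are not independent. At the other end, Sema3g, a secreted semaphorin known from blood vessels, had a mean of 0.357, 0.339 and 0.365 per kb, too few reads for an adjusted p. Sema4g stood at 3.10, 2.63 and 3.23 per kb. The others lay between these extremes, and the means carry no deposited error, so neighbours in this order cannot be told apart.

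**Figure D2:**
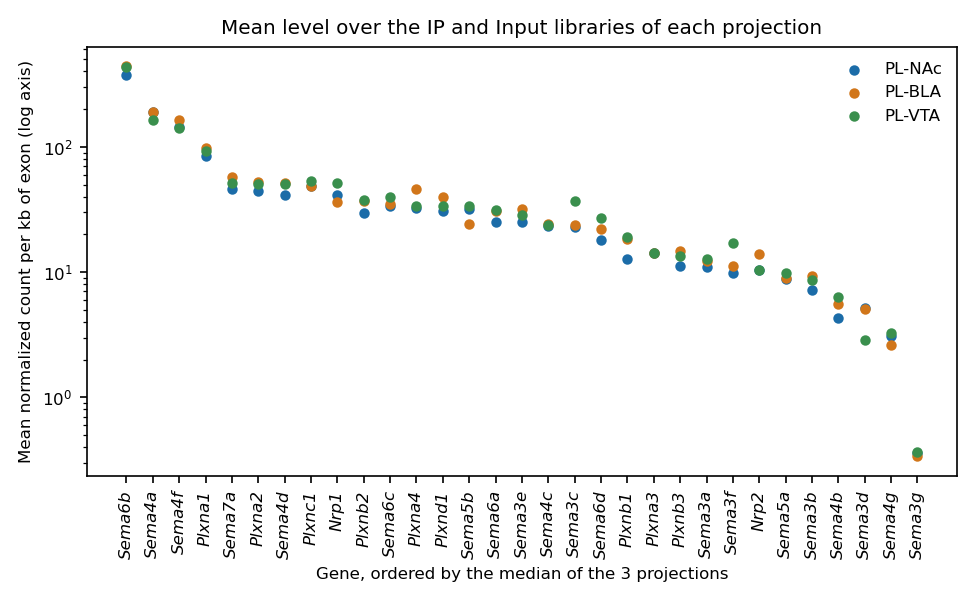
Mean normalized count per kb of exon (log axis) for each member, ordered by the median of the 3 projections, with 1 point per projection. Each point is the mean over that projection's IP and Input libraries together. Sema6b, Sema4a, Sema4f and Plxna1 lie highest and Sema3g lowest in every projection.

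Among the ligands, class 3 semaphorins are the secreted ones, of which Sema3a acts through Nrp1 and Sema3f through Nrp2. Of the 7, 1 fell in PL-NAc, 1 rose in PL-BLA and 0 were called in PL-VTA in the authors' deposited tables. Sema3a fell in PL-NAc at -0.57 (SE 0.20), or 67.1% of Input, with an adjusted p of 0.0098 by DESeq2 in the authors' deposited table. It was -0.07 (SE 0.20) in PL-BLA and -0.05 (SE 0.32) in PL-VTA, not called in either of the authors' deposited tables. Sema3e, the ligand that binds Plxnd1 without a neuropilin, rose in PL-BLA at 0.46 (SE 0.16), with an adjusted p of 0.0086 by DESeq2 in the authors' deposited table. It stood at 0.29 (SE 0.17) in PL-NAc and 0.27 (SE 0.27) in PL-VTA, uncalled, in the authors' deposited tables.

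The other class 3 members were uncalled everywhere, and several changed sign between projections. Sema3c was -0.35 (SE 0.20) in PL-NAc, -0.31 (SE 0.20) in PL-BLA and 0.67 (SE 0.29) in PL-VTA in the authors' deposited tables. Sema3f was -0.38 (SE 0.30), -0.52 (SE 0.30) and 0.54 (SE 0.38) in the same order, and Sema3d 0.64 (SE 0.32), 0.66 (SE 0.33) and -0.73 (SE 0.45), in the authors' deposited tables. The means of Sema3d were only 44.7, 43.4 and 24.7 in the authors' deposited tables. Sema3b stood at 0.29 (SE 0.35), -0.39 (SE 0.32) and -0.35 (SE 0.43) in the authors' deposited tables. In PL-NAc and PL-BLA the signs of Sema3c, Sema3d and Sema3f were alike, and in PL-VTA each was opposite. On the genome, Sema3d, Sema3a, Sema3e and Sema3c lie near each other on chromosome 5 (build GRCm38), from 12383385, the start of Sema3d, to 17730268, the end of Sema3c. Sema3b and Sema3f lie near each other on chromosome 9, from 107597674 to 107609229 and from 107681500 to 107710475.

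Class 4 semaphorins span the membrane, and Sema4d is the classic ligand of Plxnb1. Of the 6, 2 rose in PL-NAc and the same number in PL-BLA, Sema4a and Sema4f in both. Sema4a (ENSMUSG00000028064, chromosome 3, 88435959 to 88461182), known mainly from immune cells and retina, rose most at 0.76 (SE 0.09) in PL-NAc and 0.83 (SE 0.10) in PL-BLA, or 1.69-fold and 1.78-fold, in the authors' deposited tables. The adjusted p were 4.6e-15 and 2.5e-16 by DESeq2, and in PL-VTA the value was 0.37 (SE 0.18), adjusted p 0.14 by DESeq2, in the authors' deposited tables. Sema4f rose to 0.36 (SE 0.11) in PL-NAc and 0.52 (SE 0.11) in PL-BLA and was 0.23 (SE 0.19), uncalled, in PL-VTA, in the authors' deposited tables. Sema4d went the other way. It fell to -0.50 (SE 0.14) in PL-NAc and -0.65 (SE 0.24) in PL-VTA and was -0.29 (SE 0.14), uncalled, in PL-BLA, in the authors' deposited tables. Sema4b, Sema4c and Sema4g were uncalled in all 3, with values between -0.61 and 0.12 in the authors' deposited tables.

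The class 5 pair, which carry thrombospondin repeats, differed in their calls between PL-NAc and PL-BLA. Sema5b (ENSMUSG00000052133, chromosome 16, 35541145 to 35664732) rose in PL-NAc at 0.41 (SE 0.17) and fell in PL-BLA at -0.50 (SE 0.20), the only member called in opposite directions, in the authors' deposited tables. Its adjusted p were 0.0402 and 0.0358 by DESeq2 in the authors' deposited tables. The PL-NAc call ended with adjustment over all genes with a p-value (adjusted p 0.0518) and with recentring on the median of genes with a mean of at least 50 (0.0865). In PL-VTA it was 0.27 (SE 0.28), uncalled, in the authors' deposited table. Sema5a fell in PL-BLA alone at -1.003 (SE 0.21), or 49.9% of Input, with an adjusted p of 1.1e-05 by DESeq2 in the authors' deposited table. PL-NAc had -0.20 (SE 0.21) and PL-VTA 0.06 (SE 0.30), neither called, in the authors' deposited tables. Both class 5 genes were thus called lower in PL-BLA and neither was called lower elsewhere.

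Class 6 semaphorins are membrane-bound ligands of class A plexins. They split, with Sema6b higher and Sema6a, Sema6c and Sema6d lower in PL-NAc. Sema6b was 0.46 (SE 0.08) in PL-NAc, 0.46 (SE 0.09) in PL-BLA and 0.37 (SE 0.16), uncalled, in PL-VTA, a range of only 0.08 over the 3 projections, in the authors' deposited tables. Sema6a, a ligand of Plxna2 and Plxna4 that oligodendrocytes are known to express, fell to -1.64 (SE 0.18), -1.03 (SE 0.18) and -0.72 (SE 0.26) in PL-NAc, PL-BLA and PL-VTA in the authors' deposited tables. This left 32.1%, 48.9% and 60.9% of Input. Sema6d fell to -1.08 (SE 0.19) in PL-NAc and -0.89 (SE 0.17) in PL-BLA and was -0.20 (SE 0.26), uncalled, in PL-VTA, in the authors' deposited tables. Sema6c fell in PL-NAc at -0.58 (SE 0.17) and was -0.40 (SE 0.18) in PL-BLA, with an adjusted p of 0.055 by DESeq2, and -0.31 (SE 0.28) in PL-VTA, in the authors' deposited tables.

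Sema7a (ENSMUSG00000038264, chromosome 9, 57940112 to 57962865) is the only class 7 member. It is held in the membrane by a lipid anchor and binds integrins and Plxnc1. Sema7a fell to -0.57 (SE 0.19), -0.99 (SE 0.20) and -1.25 (SE 0.31) in PL-NAc, PL-BLA and PL-VTA in the authors' deposited tables, or 67.6%, 50.3% and 42.1% of Input. The adjusted p were 0.0101, 3.2e-06 and 0.00069 by DESeq2 in the authors' deposited tables. It was lowest in PL-VTA and Sema6a in PL-NAc, though no difference between projections passed for either gene at an adjusted Wald p under 0.05.

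Among the receptors, plexins of class A pair with neuropilins and bind class 6 semaphorins directly. Of the 4, PL-NAc had 1 that rose, PL-BLA 2 and PL-VTA 0, and 0 fell, in the authors' deposited tables. Over all tested genes 43.1%, 41.0% and 21.5% were called in the same order. Plxna1 was 0.48 (SE 0.10) in PL-NAc, 0.53 (SE 0.11) in PL-BLA and 0.44 (SE 0.20) in PL-VTA in the authors' deposited tables, where DESeq2 gave the last an adjusted p of 0.11. Plxna4, a receptor for Sema3a and Sema6a, rose in PL-BLA at 0.49 (SE 0.12) and stood at 0.19 (SE 0.12) and -0.00 (SE 0.23) in PL-NAc and PL-VTA in the authors' deposited tables. Plxna2 and Plxna3 were uncalled, Plxna2 at -0.14, -0.21 and 0.11 and Plxna3 at -0.28, -0.01 and -0.43 in PL-NAc, PL-BLA and PL-VTA in the authors' deposited tables.

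Of the class B plexins, 2 fell in all 3 projections and the third in PL-NAc only. Over all tested genes, 21.7%, 20.2% and 10.5% were called lower in PL-NAc, PL-BLA and PL-VTA. Plxnb1 (ENSMUSG00000053646, chromosome 9, 109095389 to 109119917), the receptor of Sema4d, was -1.98 (SE 0.23) in PL-NAc, -1.63 (SE 0.21) in PL-BLA and -1.53 (SE 0.31) in PL-VTA in the authors' deposited tables. This left 25.3%, 32.2% and 34.6% of Input, with adjusted p of 6.0e-17, 5.1e-14 and 1.1e-05 by DESeq2 in the authors' deposited tables. Plxnb3 (chromosome X, 73757090 to 73772514), which is known from oligodendrocytes, was -1.93 (SE 0.28), -0.995 (SE 0.25) and -1.66 (SE 0.39) in the authors' deposited tables, or 26.2%, 50.2% and 31.7% of Input. Plxnb2, a broadly expressed receptor of Sema4c, fell in PL-NAc only, at -0.64 (SE 0.17), and was -0.14 (SE 0.19) and -0.21 (SE 0.26) in PL-BLA and PL-VTA in the authors' deposited tables. Sema4d and its receptor Plxnb1 thus both fell in PL-NAc and in PL-VTA.

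Most glial markers moved in the same direction as these members. The median oligodendrocyte marker was at 10.7%, 18.6% and 17.8% of Input and the median astrocyte marker at 21.3%, 37.0% and 35.9% in PL-NAc, PL-BLA and PL-VTA, from the authors' deposited tables. Oligodendrocyte markers ranged from -3.54 to -1.54 in PL-NAc, from -3.01 to -0.78 in PL-BLA and from -2.85 to -0.90 in PL-VTA in the authors' deposited tables. The lowest mean of any marker was 2.83 normalized counts, that of endothelial Cdh5 in PL-NAc, in the authors' deposited table. Markers of vessels (endothelial and mural cells), for the members known from vessels, were lower in 8 of 11, 9 of 11 and 5 of 10 tested cases with medians of -1.34, -1.39 and -1.04 in the authors' deposited tables. Plxnb1 and Plxnb3 were less depleted than the median oligodendrocyte marker in each projection. The median astrocyte marker stood at -2.23, -1.43 and -1.48 in PL-NAc, PL-BLA and PL-VTA. Beside it, Plxnb1 was more depleted in PL-BLA and PL-VTA and Plxnb3 in PL-VTA. Plxnb1 in PL-NAc and Plxnb3 in PL-NAc and PL-BLA were less depleted. The part of these cell types in the members' decreases was not tested.

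Of the remaining plexins, Plxnc1, the receptor of Sema7a, rose in PL-NAc at 0.33 (SE 0.13), with an adjusted p of 0.031 by DESeq2, in the authors' deposited table, a call that ended with recentring on the median of genes with a mean of at least 50 (adjusted p 0.0851). It was 0.17 (SE 0.13) in PL-BLA and 0.27 (SE 0.22) in PL-VTA in the authors' deposited tables. Sema7a, its ligand, was lower in each, but the sign of Plxnc1 depends on the reference and turned to -0.26 in PL-NAc and -0.38 in PL-BLA with the excitatory markers as centre. Plxnd1, the receptor of Sema3e, fell in PL-NAc at -0.42 (SE 0.17) and was -0.25 (SE 0.15) in PL-BLA and -0.80 (SE 0.33) in PL-VTA in the authors' deposited tables, where the last had an adjusted p of 0.063 by DESeq2. Sema3e and Plxnd1 were called together in no projection, and Sema3e turned to -0.30 in PL-NAc and -0.081 in PL-BLA with the excitatory markers as centre.

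Nrp1 (ENSMUSG00000025810), the co-receptor of Sema3a and of vascular endothelial growth factor, was the only member higher in the PL-VTA IP. There it was 1.02 (SE 0.22), or 2.02-fold, and the DESeq2 adjusted p was 4.4e-05 in the authors' deposited table, while the median excitatory marker was at 0.06 and 5 of 10 endothelial and mural markers were lower. It also rose in PL-NAc at 0.44 (SE 0.14) and was 0.32 (SE 0.14) in PL-BLA with an adjusted p of 0.053 by DESeq2, in the authors' deposited tables. Nrp2, the co-receptor of Sema3f, was uncalled at 0.10 (SE 0.21), 0.00 (SE 0.20) and 0.23 (SE 0.34) in PL-NAc, PL-BLA and PL-VTA in the authors' deposited tables.

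These directions are relative to the total RNA of the tissue, in which neurons of the same class already make up a share. Measured instead from the median excitatory marker of the same projection, which shifts all values by 0.59 (PL-NAc), 0.55 for PL-BLA and 0.06 for PL-VTA, 6 of the 7 members called higher in PL-NAc and 5 of the 6 in PL-BLA turned negative. These included Plxna1, Sema4f, Sema6b and, in PL-NAc, Nrp1. Sema4a stayed positive in both, at 0.16 in PL-NAc (adjusted p 0.105, recomputed from the authors' DESeq2 values) and 0.28 in PL-BLA (adjusted p 0.0066, likewise). Nrp1 in PL-VTA stayed at 0.96 (adjusted p 0.00014, likewise). With this centre the counts became 0 higher and 20 lower in PL-NAc, 1 higher and 21 lower in PL-BLA, and 1 higher and 6 lower in PL-VTA. Members below 0 can only move further down under such a shift, so their calls are not tested by it.

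Promoter sequences are shown for 3 of the members that moved together, each with a single start in the RefSeq table (build GRCm38.p6). This set need not hold every such member. Each sequence comes from the 250 bases before the start, without bases that an annotated exon covers. Capitals mark the GC box, GGGCGG on either strand. The first and second belong to members that fell in all 3 projections and the third to a member that rose in PL-NAc and PL-BLA.
Sema7a: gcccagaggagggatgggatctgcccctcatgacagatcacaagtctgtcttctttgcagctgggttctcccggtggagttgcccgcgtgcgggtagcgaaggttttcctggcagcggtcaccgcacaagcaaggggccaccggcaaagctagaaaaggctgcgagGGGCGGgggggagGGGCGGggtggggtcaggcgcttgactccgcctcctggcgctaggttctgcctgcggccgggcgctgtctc
Plxnb3: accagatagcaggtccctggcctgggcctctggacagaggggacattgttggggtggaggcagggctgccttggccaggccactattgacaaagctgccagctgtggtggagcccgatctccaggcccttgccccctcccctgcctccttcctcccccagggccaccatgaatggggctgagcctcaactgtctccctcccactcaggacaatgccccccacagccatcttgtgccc
Sema4f: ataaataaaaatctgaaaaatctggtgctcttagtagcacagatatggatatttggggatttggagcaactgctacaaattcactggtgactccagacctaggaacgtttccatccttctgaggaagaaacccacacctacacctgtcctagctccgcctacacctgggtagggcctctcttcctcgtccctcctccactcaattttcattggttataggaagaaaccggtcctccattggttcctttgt
They are chr9:57939862-57940111 on the plus strand, chrX:73756853-73757089 on the plus strand and chr6:82939770-82940019 on the minus strand, each written 5′ to 3′. Sema7a held 2 GC boxes in 250 bases of 66.4% G and C, Plxnb3 held 0 in 237 bases of 64.6%, and Sema4f held 0 in 250 bases of 46.0%. The E-box CANNTG was found 1, 2 and 3 times in Sema7a, Plxnb3 and Sema4f. The TATA box TATAAA and the cyclic AMP response core TGACG were in none of the 3. The promoters of Sema7a and Plxnb3, which fell together, thus did not share the GC box. Those of Sema6a and Plxnb1, which also fell in all 3 projections, are not shown. In the table as a whole, 26 members had 37 windows, of which 27, or 73.0%, held a GC box in the 250 bases before the start, against 32.7% of 32851 windows of all genes. The E-box was in 51.4% of the members' windows against 66.2% of all, the TGACG core in 2.703% against 17.8%, and the TATA box in 0 of 37 against 12.4%. Several windows belong to alternative starts of 1 gene, and a match describes letters, not a binding site. The windows of all genes were not matched to the members for expression or for G and C content. These shares are therefore a description and no result about the members.

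The projections were next compared with each other, to ask whether a member's enrichment in the IP depended on the target. They share no library. Over the 30 members with an adjusted p, the log2 fold changes in the authors' deposited tables correlated with Pearson's r of 0.84 and a Spearman rank correlation of 0.77 between PL-NAc and PL-BLA, 0.70 and 0.62 between PL-NAc and PL-VTA, and 0.60 and 0.47 between PL-BLA and PL-VTA. These points are genes that share libraries, and are given as a description. The sign was the same in all 3 projections for 22 of the 31 members, and this share was not computed over all genes. Differences were tested per gene by a two-sided Wald z with Benjamini-Hochberg adjustment over all genes with a fold change in both tables. No member passed: the count was 0 of 31 in each pair, against 1.14%, 2.29% and 3.05% of all genes for PL-NAc and PL-BLA, PL-NAc and PL-VTA, and PL-BLA and PL-VTA. The counts against PL-VTA depend on the reference, since recentring on the excitatory markers gave 8 members lower in PL-NAc than in PL-VTA and 8 lower in PL-BLA than in PL-VTA by the same test. That reference itself differs between projections. Camk2a, Neurod6 and Nptx1 were called higher in PL-NAc and lower in PL-VTA, while Lingo1 and Nrgn were called higher in all 3. How far such markers set the shift was not tested. At an unadjusted p under 0.05 the counts were 4, 5 and 8 members, against 6.98%, 7.89% and 8.18% of all genes.

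Between PL-NAc and PL-BLA, Sema5b had the smallest p, with 0.41 against -0.50, a difference of 0.90 (SE 0.26, 95% interval 0.38 to 1.42) and an adjusted Wald p of 0.0539. It passed in 4 of the 6 other ways of computing the test, with adjusted p from 0.0305 to 0.0491. Its relative Sema5a differed in the same direction by 0.80 (SE 0.29, 0.23 to 1.38; adjusted Wald p 0.258). Plxnb3 and Sema6a were lower in PL-NAc than in PL-BLA by differences of -0.94 (SE 0.38) and -0.60 (SE 0.25), with adjusted Wald p of 0.383 and 0.433. For these 2 the oligodendrocyte median was also lower in PL-NAc, at -3.22 against -2.43 in the authors' deposited tables, and its part was not tested.

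Against PL-VTA, Sema3c was lower in PL-NAc by a difference of -1.03 (SE 0.36) and in PL-BLA by -0.99 (SE 0.36), with adjusted Wald p of 0.128 and 0.138. Nrp1 was lower by -0.58 (SE 0.26) and -0.69 (SE 0.26), with adjusted Wald p of 0.430 and 0.170, and Sema6d by -0.88 (SE 0.32) and -0.69 (SE 0.31), with 0.185 and 0.431. Sema3d was higher by 1.37 (SE 0.56) and 1.39 (SE 0.56), with adjusted Wald p of 0.296 and 0.25. These 4 members had an unadjusted p under 0.05 against PL-VTA in both other projections, and the PL-VTA libraries are common to both of those tests. Sema6a was lower in PL-NAc than in PL-VTA by -0.92 (SE 0.32, adjusted Wald p 0.128). Sema5a and Sema5b were lower in PL-BLA than in PL-VTA by -1.06 (SE 0.37, adjusted Wald p 0.108) and -0.77 (SE 0.34, 0.410). Sema3f was also lower in PL-BLA, by -1.06 (SE 0.49, 0.446), and Sema4a higher, by 0.46 (SE 0.21, 0.414). The direction of the Sema4a difference turned to -0.07 when the excitatory markers were used as the reference.

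A missed threshold does not show that members act alike. The intervals say how far apart they could be by the deposited SE alone, and cover neither the choice of reference nor the shrinkage. For Plxna1 the 95% interval of the difference ran from -0.35 to 0.24 between PL-NAc and PL-BLA and from -0.41 to 0.48 between PL-NAc and PL-VTA. For Sema6b it ran from -0.24 to 0.24 and from -0.28 to 0.44. For Sema7a it was wider, from -0.12 to 0.97 and from -0.04 to 1.401, and for Plxnb1 from -0.95 to 0.25 and from -1.20 to 0.30. With the excitatory markers as centre, the PL-NAc minus PL-VTA difference became -0.43 for Plxna1 and -0.38 for Sema6b, outside these intervals.

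**Figure D3:**
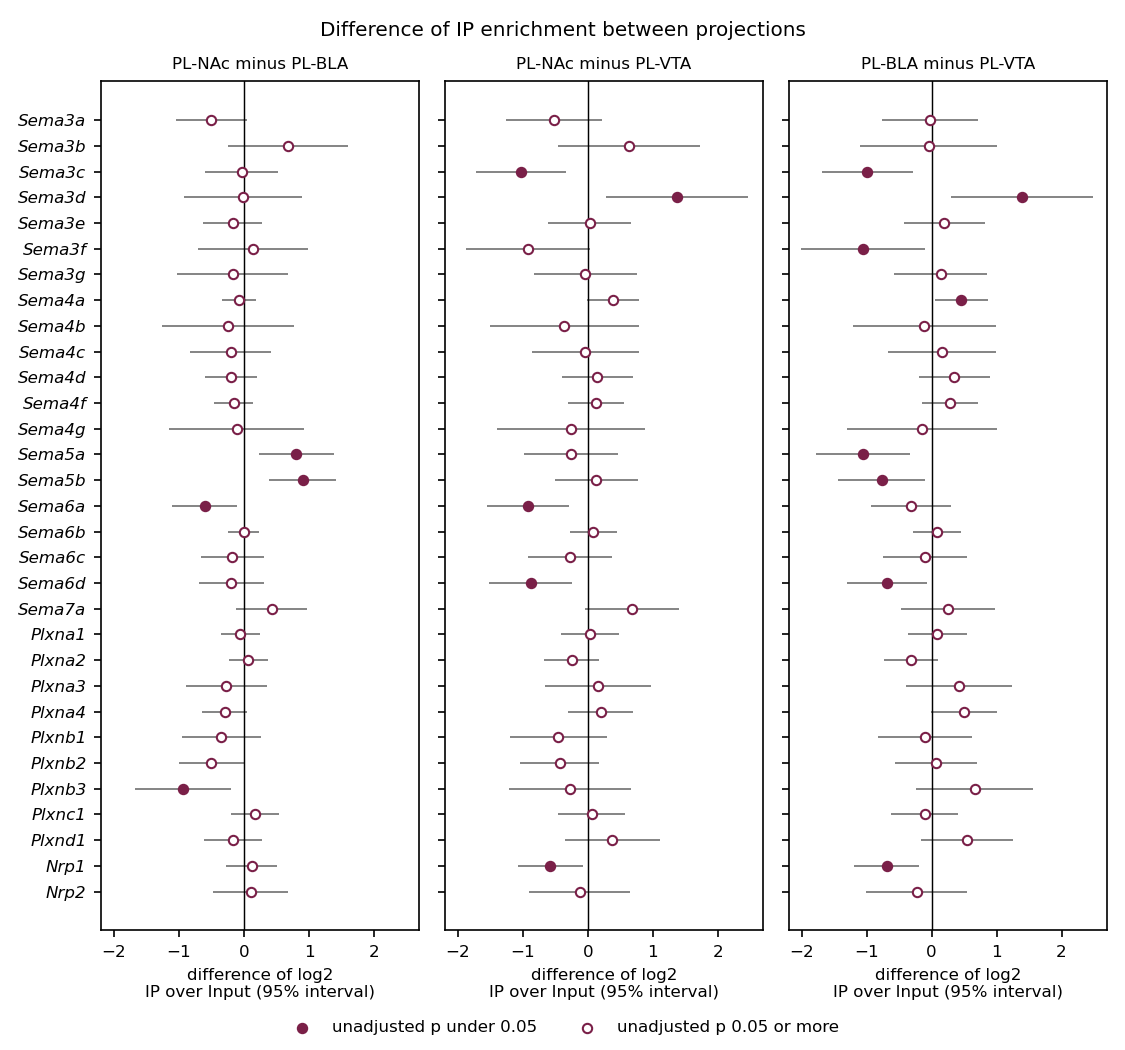
Difference of the log2 fold change of IP over Input between 2 projections (x axis) for each member (y axis), 1 panel per pair, with 95% intervals. Filled points have an unadjusted p under 0.05 and number 4, 5 and 8 from left to right. Sema5a and Sema5b lie right of 0 in the first panel and left of 0 in the last.

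The pathway around these receptors was followed in 6 lists of 72 genes. Together, 23 rose and 16 fell in PL-NAc, 17 rose and 18 fell in PL-BLA, and 11 rose and 5 fell in PL-VTA, of 71, 71 and 70 tested, in the authors' deposited tables. Over all tested genes 43.1%, 41.0% and 21.5% were called, and the counts of the single lists below are to be read against these shares. Collapsin response mediator proteins, which carry the Sema3a signal to microtubules, rose in 5 of 5 cases for PL-NAc, 4 for PL-BLA and 3 for PL-VTA and fell in 0, with list medians of 0.48, 0.55 and 0.47 in the authors' deposited tables, of which the first lies below the excitatory median of its projection. Dpysl4 was 0.70 (SE 0.09), 0.71 (SE 0.09) and 0.47 (SE 0.17) and Dpysl3 0.48 (SE 0.11), 0.40 (SE 0.12) and 0.61 (SE 0.20) in PL-NAc, PL-BLA and PL-VTA in the authors' deposited tables. Of the other receptors and co-receptors, of which 14, 14 and 13 were tested, 4, 3 and 3 rose and 2, 1 and 0 fell in the authors' deposited tables, no larger a share than over all tested genes (43.1%, 41.0% and 21.5%) in PL-NAc and PL-BLA and near it in PL-VTA. Called higher in every projection were 3 adhesion molecules that join neuropilins in receptor complexes, though Nrcam in PL-NAc lay below the excitatory median. L1cam, a partner of Nrp1, was 0.84 (SE 0.09), 0.94 (SE 0.10) and 0.82 (SE 0.16), and Chl1 was 0.90 (SE 0.10), 0.76 (SE 0.10) and 1.18 (SE 0.17), in the authors' deposited tables. Nrcam, a partner of Nrp2, was 0.58 (SE 0.08), 0.75 (SE 0.07) and 0.77 (SE 0.15) in the authors' deposited tables.

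Mical enzymes, which oxidize actin below plexins, were listed together with the related genes Micall1 and Micall2, and this list split. Of 5, 4 fell and 1 rose in PL-NAc, 3 fell and 1 rose in PL-BLA, and 1 fell and 1 rose in PL-VTA in the authors' deposited tables. The one called higher each time was Mical2, at 0.42 (SE 0.06), 0.70 (SE 0.07) and 0.44 (SE 0.13), the first of which lies below the excitatory median of its projection, while the related Micall1 fell to -1.14 (SE 0.16), -0.94 (SE 0.18) and -0.98 (SE 0.28), in the authors' deposited tables. Of 20 GTPases and regulators, 5, 4 and 1 rose and 5, 5 and 3 fell in the authors' deposited tables, near the 43.1%, 41.0% and 21.5% of all tested genes called. Rnd2, which binds plexins, fell furthest at -2.25 (SE 0.10), -2.64 (SE 0.10) and -1.41 (SE 0.41), and Chn1, a Rac regulator, rose at 0.22 (SE 0.05), 0.29 (SE 0.07) and 0.44 (SE 0.13), in the authors' deposited tables.

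Of 17 kinases and phosphatases, 4, 2 and 3 rose and 2, 5 and 1 fell, and of 10 actin effectors and adaptors 4, 3 and 0 rose and 3, 4 and 0 fell, in PL-NAc, PL-BLA and PL-VTA in the authors' deposited tables. Against 43.1%, 41.0% and 21.5% of all tested genes called, the kinases and phosphatases were near or below that share. The actin effectors and adaptors were above it in PL-NAc and PL-BLA, and 0 were called in PL-VTA. Cdk5, which phosphorylates the collapsin response mediators, rose at 0.42 (SE 0.07), 0.40 (SE 0.07) and 0.47 (SE 0.13), and Ptk2b at 0.27 (SE 0.06), 0.47 (SE 0.07) and 0.48 (SE 0.14), in the authors' deposited tables. Fes fell to -1.66 (SE 0.40), -1.49 (SE 0.39) and -1.47 (SE 0.45) at means of only 21.7, 22.1 and 23.0 normalized counts in the authors' deposited tables. Pak3, a kinase below Rac, was the 1 pathway gene called in opposite directions, at -0.32 (SE 0.08) in PL-BLA and 0.68 (SE 0.15) in PL-VTA, in the authors' deposited tables. Recentred on the excitatory markers, values in PL-NAc and PL-BLA fall by the shifts given above, which takes Dpysl3, Cdk5, Chn1 and Ptk2b below 0 in both and Mical2 below 0 in PL-NAc.

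**Figure D4:**
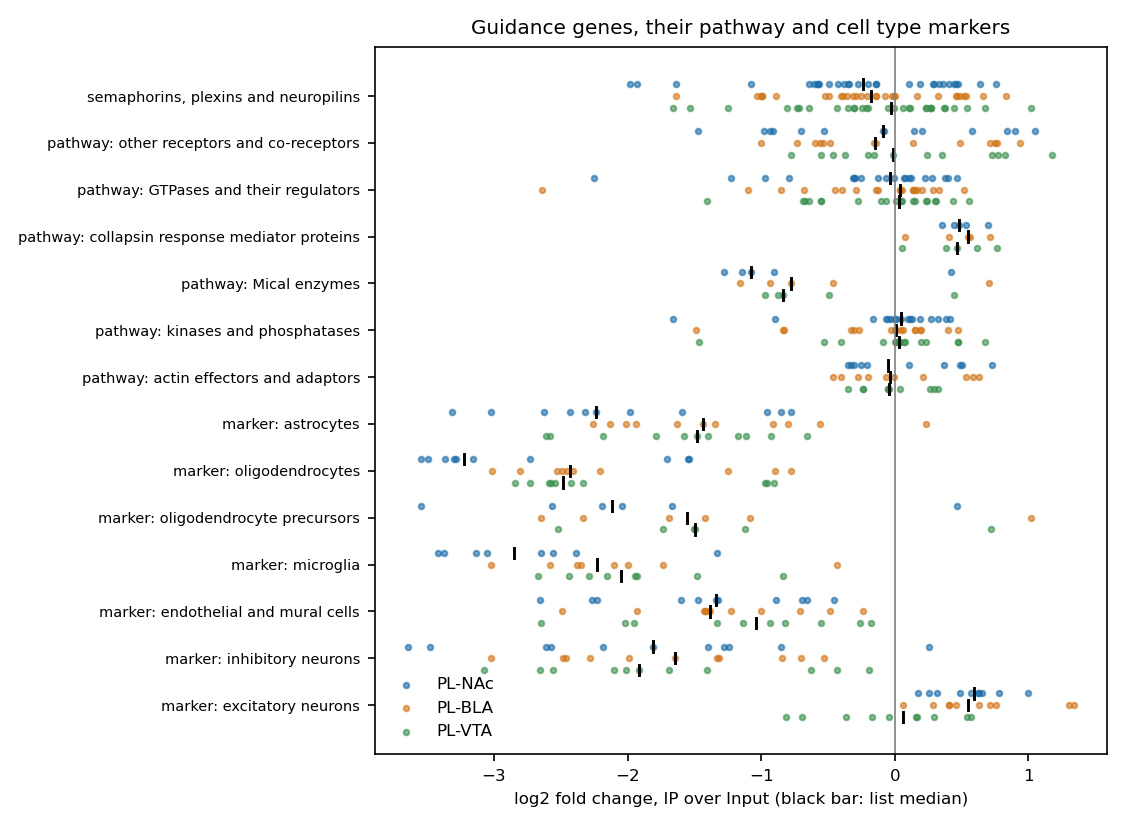
Log2 fold change of IP over Input (x axis) for the members, 6 pathway lists and 7 cell type marker lists (y axis), with 1 point per tested gene, 1 colour per projection and a black bar at each list's median. The members and most pathway lists straddle 0, collapsin response mediators lie to its right, and glial and inhibitory markers lie mostly to its left.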

How the data were processed

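The submitters' processing notes list STAR 2.3 and featureCounts, DESeq2 as the authors' test, and the builds mm10 and GRCm38. The sources used here give no annotation, filter or model formula. Per the labels' protocols, libraries came from SMARTer Ultra Low and Nextera XT kits, and counting is not stated to use strand. Exons that a member shares with another gene came to at most 10.7% of its exon length (Plxna1), and the overlapping genes that the tables list had means under 0.5.

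The mean signal is the authors' mean of size-factor-normalized counts over a comparison's libraries, per the file headers. The log2 fold changes and their SE are the authors', per the file headers. The test score is the authors' Wald statistic, which equalled their ratio. Each p-value and its adjusted value were deposited by the authors, the latter blank below a mean of 1.82 for PL-NAc, 2.39 for PL-BLA and 8.58 for PL-VTA. Rows without a symbol held 0.227% to 0.240% of the counts. The deposited fold changes appear to be shrunken toward 0: the median SE was 0.180 at means below 1, 0.413 at means of 10 to 30 and 0.0782 at means of 1000 or more in PL-NAc, and the median size of the fold changes below a mean of 1 was 0.05. They therefore understate changes of genes with few reads.

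Gene positions and exon lengths came from GENCODE M21 (GRCm38), in which all 31 members matched by identifier. Differences between projections were Wald z tests in Python 3.11.15 with scipy 1.17.1. They were tried on simulated data with normal errors of the deposited SE. Those errors were not shrunken, so the trial does not show how the tests behave on shrunken fold changes. The planned count model could not be used, because the files hold comparisons and not counts. The members, gene lists and tests were chosen with earlier results of these data known. All members are named. Of each other list, up to 3 genes called in 1 direction in all 3 projections, and those called in opposite directions, could be named. The gene Flt1 is in 2 lists.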

Additional observations from a re-analysis of the deposited data

How the results depend on the processing

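No paired analysis was possible because the tables hold no values per library, and for the same reason no replicate could be left out. Total counts of members called against Input moved by over 1.5 times only in PL-BLA, from 13 to 22 when recentred on the excitatory markers, which also moved the split from 6 higher and 7 lower to 1 and 21 there and from 7 and 10 to 0 and 20 in PL-NAc. By the Wald z, members that differ between PL-NAc and PL-BLA went from 0 to 1, Sema5b each time, with adjustment over genes whose mean reached 50 or with a deposited adjusted p in both, with recentring on the median of genes with a mean of at least 50, and with the shrinkage divided out. The last was added after seeing the data, uses genes with a mean of at least 20, and kept 0 in the other pairs. Recentring on the excitatory markers, some of which were called in opposite directions between projections, gave 8 and 8 lower members in PL-NAc and PL-BLA against PL-VTA. The same recentring, by construction, turned the following values. Against Input in PL-NAc, Sema6b became -0.14, Plxna1 -0.12, Sema4f -0.23, Nrp1 -0.15, Plxnc1 -0.26, Sema5b -0.19, Sema3e -0.30, Plxna4 -0.40, Sema3b -0.31 and Nrp2 -0.49. In PL-BLA, Sema6b became -0.089, Plxna1 -0.016, Sema4f -0.025, Nrp1 -0.22, Plxnc1 -0.38, Sema3e -0.081, Plxna4 -0.055 and Nrp2 -0.55, and in PL-VTA Sema5a became -0.0014. For PL-NAc minus PL-VTA, Sema4a became -0.076, Sema6b -0.38, Plxna1 -0.43, Sema4d -0.31, Sema4f -0.33, Plxnd1 -0.081, Plxnc1 -0.40, Sema5b -0.33, Sema3e -0.43, Plxna4 -0.27 and Plxna3 -0.31. For PL-BLA minus PL-VTA, Sema4a became -0.072, Sema6b -0.45, Plxna1 -0.44, Plxnb2 -0.46, Sema4d -0.18, Sema4f -0.24, Sema7a -0.28, Sema3e -0.33, Plxna4 -0.035, Sema4c -0.37, Plxna3 -0.11 and Sema3g -0.39. With the median of genes with a mean of at least 50 as the centre, Nrp2 in PL-BLA became -0.055, Sema5a in PL-VTA -0.0072, the PL-NAc minus PL-BLA difference of Sema6b 0.0090 and the PL-BLA minus PL-VTA difference of Sema3a 0.0011. With the shrinkage divided out, PL-NAc minus PL-VTA became 0.0091 for Plxnb3 and 0.0053 for Sema4c, and PL-BLA minus PL-VTA 0.017 for Plxnb1 and 0.080 for Sema3b. An adjusted p under 0.01 ended 7 single calls against Input.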
